A study of Homo sapiens with 16 samples.

Results

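Pseudouridine (Ψ) is the isomer of uridine (U) that is most abundant in ribosomal RNA (rRNA), spliceosomal RNA and transfer RNA (tRNA). It is made either by stand-alone pseudouridine synthases or by dyskerin (DKC1), which works inside H/ACA small nucleolar particles whose guide RNAs pair with the target. CMC is a carbodiimide that leaves an adduct on pseudouridine, and reverse transcriptase stops at that adduct, so the stops that CMC adds are the direct readout of the chemistry. Here this readout is described for the simplest pair of conditions of the series, CMC alone against no CMC in HEK293T cells, a human embryonic kidney line.

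The comparison rests on 4 of the 16 libraries of the series, with 2 replicates a group. All 4 were made from wild type HEK293T cells, from RNA selected with oligo(dT) beads and fragmented to about 250 nt. The CMC+ libraries were treated with 0.2 M CMC for 20 min and then with sodium carbonate for 6 h, both at 37 °C, and the CMC- libraries carry the label CMC-untreated. Both groups share 2 further marks in the treatment label, RA3+ and DA3+, which the labels do not explain. Nothing in the labels says that the replicates came from separate cultures, so p-values measure only the spread between these samples. No library of this comparison was treated with Terminator, the exonuclease used elsewhere in the series.

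Each replicate has a deposited table that sets the CMC+ library beside its CMC- partner, position by position. A stop read is a read that ends at the position, covering reads are all reads over it including the stop reads (the denominator of the stop ratio that the authors deposited), and the stop percent is the first as a share of the second. The tables list 157330 positions for replicate 1 and 219316 for replicate 2. In both tables stood 65490 positions, and 55397 remained after identical 31-base sequences, such as the copies of the rRNA genes, were counted once. Of these, 19467 were U, and 18876 positions (6242 U) were tested, those with 10 or more stop reads in 2 or more of the 4 libraries. The library totals behind the authors' RPM ran from about 14904500 to 19063700 reads, and the median listed position had 69.0 to 102 covering reads per library. Of 8 markers of this line 2 were listed, CKB at 409 and VIM at 194 positions, while no position of 8 colorectal, 3 blood or 3 fibroblast markers was listed, which in a list of selected positions does not give their level.

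A position was listed in these tables only with at least 5 CMC+ stop reads and a stop percent no lower than that of the CMC- library. The direction of a change against covering reads is therefore fixed by the listing in both replicates, and only its size and its reproducibility carry information. The term called is used below for an adjusted p under 0.05 together with a fold of 2 or more.

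CMC raised stops at 63 U and at 4 other bases. The called U made up 1.01% of the 6242 tested U, against 0.0317% of the 12634 tested A, C and G and 0.355% of all tested positions (edgeR quasi-likelihood test, Benjamini-Hochberg adjustment over all 18876 positions). At an unadjusted p under 0.05 stood 329 U and 302 other bases. Among the called U, the median stop percent was 2.57 and 2.20 in the CMC- libraries of replicates 1 and 2, and 6.73 and 6.14 in the CMC+ libraries. Their log2 change ran from 1.04 to 1.87 with a median of 1.35, while the median over tested U was 0.31 and over other bases 0.26. At 63 of 63 called U both CMC+ values lay above both CMC- values, which also held at 4126 of the 6242 tested U. Without CMC+ replicate 1 the test called 40 U, without CMC+ replicate 2 35, without CMC- replicate 1 51 and without CMC- replicate 2 30, and 27 of the 63 were called in each of these fits, which had 3 libraries and no replicate block (60 U with 4 libraries and no block). Centring each pair of libraries on the median of its other bases, which lowered the median log2 change over all tested positions from 0.28 to 0.04, left 33 U and 1 other base called. DESeq2, with a median SE of 0.63 against 0.14 in edgeR, called 0 U and 0 other bases, and had 68 U and 17 other bases at an unadjusted p under 0.05.

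**Figure D1:**
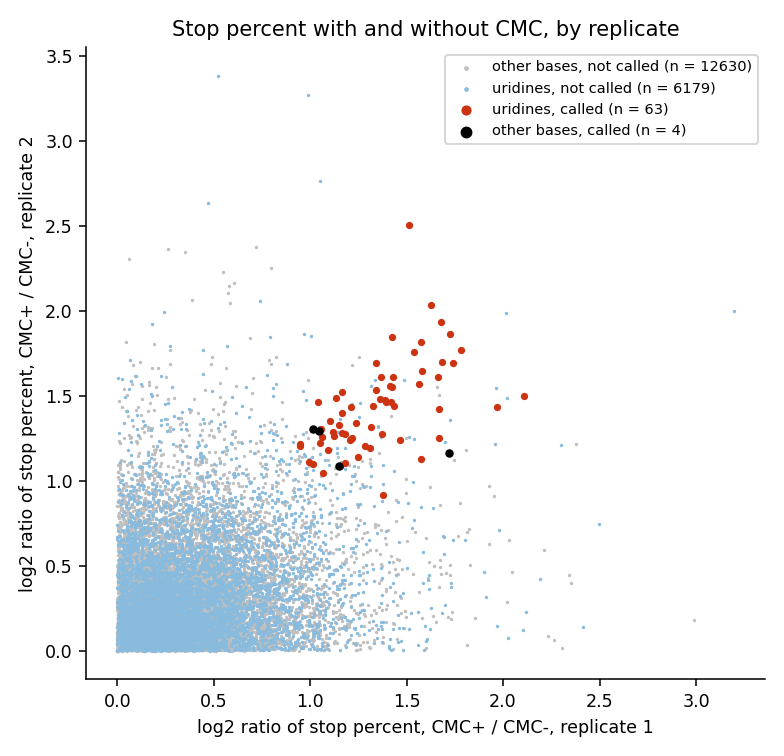
Each point is a tested position, with the log2 ratio of stop percent (CMC+ over CMC-) of replicate 1 on the x axis and of replicate 2 on the y axis. The 63 called U (red) lie between 0.95 and 2.11 in replicate 1 and between 0.92 and 2.50 in replicate 2, and no point lies below 0 because the tables list none.

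The size of the change was compared between replicates. Across positions, which are not independent replicates and share libraries, Pearson's r of the 2 log2 ratios was 0.55 over the 63 called U, 0.28 over tested U and 0.19 over other bases. The first of these is narrowed by the choice of called positions, which removes low values in either replicate. The median absolute difference between replicates was 0.14 among the called U and 0.21 among tested U. The called U were chosen by a low p in these same libraries, which favours agreement between replicates. This difference is therefore no separate support for the calls.

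Windows of called U from each RNA with a call other than a pseudogene, with 7 of those in 18S and 28S rRNA, are shown first, 10 bases to each side of the stop, 5′ to 3′ in the sense of the RNA as the deposited tables give them, with the called U as a capital T. Bases of 18S and 28S rRNA are numbered in the RefSeq copies RNA18SN1 and RNA28SN1 on chromosome 21 of hg38 (plus strand), and other bases in the transcript that the tables name.
18S base 966: gaggtgaaatTcttggaccgg
18S base 1692: ccctgcccttTgtacacaccg
18S base 822: aattagagtgTtcaaagcagg
28S base 1862: tgggccacttTtggtaagcag
28S base 3815: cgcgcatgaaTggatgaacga
28S base 4573: tgatgatgtgTtgttgccatg
28S base 4576: tgatgtgttgTtgccatggta
5.8S base 68: agaattaatgTgaattgcagg
MT-RNR2 base 1397: ctacgtgatcTgagttcagac
MT-TM base 24: aaataagctaTcgggcccata
MT-TF base 29: ctcaaagcaaTacactgaaaa
RNU4-2 base 72: ttgaaaacttTtcccaatacc

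Around the called U no base dominated. Immediately 5′ of the called U stood T in 25.4%, A in 28.6%, C in 20.6% and G in 25.4% of the 63, and immediately 3′ T in 28.6%, A in 27.0%, C in 22.2% and G in 22.2%. Among the 693 tested U of 18S and 28S rRNA that were not called, A stood 5′ in 18% and 3′ in 16.3%. These shares were not tested.

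Ribosomal RNA held 57 of the 63 called U in its 2 largest molecules, although the RNA had been selected with oligo(dT). In 18S rRNA, the RNA of the small ribosomal subunit, 16 of 243 tested U were called (6.58%), between bases 34 and 1692. The 28S rRNA of the large subunit held 41 of 507 (8.09%), between bases 1536 and 5006. A smaller share of the 18S than of the 28S calls held in every fit that left out a library. A larger share of the 18S calls was lost in each of those fits. Of other bases 0 of 646 were called in 18S and 3 of 2027 in 28S. Without CMC the called U of both RNAs did not stand out: their median stop percent was 2.55 and 2.19 in the 2 CMC- libraries, and the median over all 750 tested U of both RNAs, each as the mean of the libraries, was 2.51. At 18S base 1248, a hypermodified U known to block reverse transcriptase, the CMC- libraries already showed stop percents of 15.3 and 19.1 and the CMC+ libraries 24.7 and 24.2, and it did not pass (adjusted p = 0.42, edgeR). The largest stop percent without CMC among tested U of either RNA was at 18S base 63, with 21.2 and 20.9 in CMC- and 23.4 and 23.0 in CMC+, and it was not called.

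**Figure D2:**
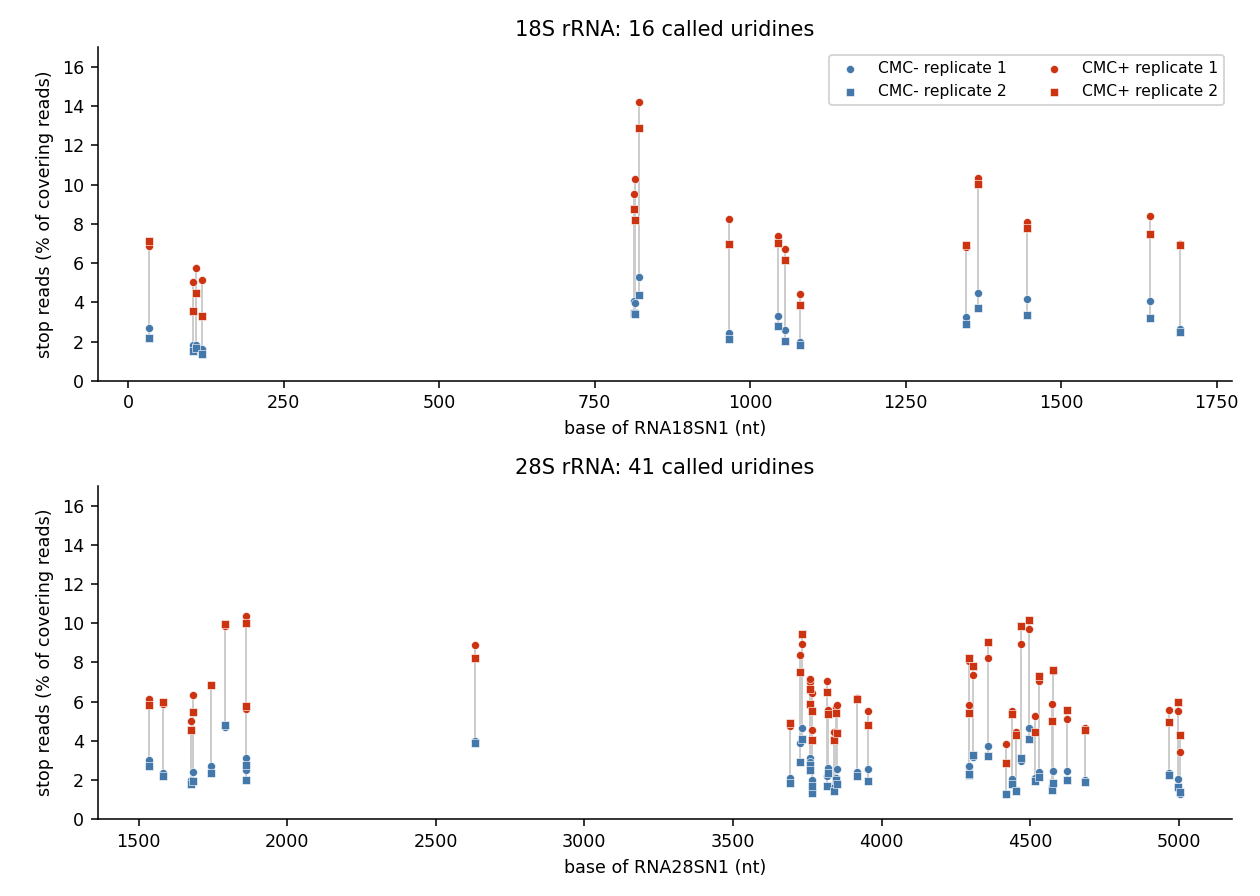
Stop percent of each called U in the 4 libraries, along 18S rRNA (top, 16 U) and 28S rRNA (bottom, 41 U), with circles for replicate 1, squares for replicate 2 and a grey line joining the values of a U. The CMC+ values (red) of these U run from 2.85 to 14.2 and lie above both CMC- values (blue) of the same U, which run from 1.28 to 5.29. The groups were also apart at 155 of 243 tested U of 18S and 349 of 507 of 28S.

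The largest change in 18S rRNA was at base 966 (chromosome 21, position 8437841). Its stop percent was 2.46 and 2.15 in the CMC- libraries and 8.23 and 6.98 in the CMC+ libraries. The log2 change was 1.75 ± 0.09 (SE, adjusted p = 0.0034, edgeR). Base 822 (position 8437697) reached the highest stop percent of the called 18S U, 14.2 and 12.9 with CMC against 5.29 and 4.40 without. Its log2 change was 1.50 ± 0.08, and it stayed called in each fit that left out a library. Base 1692 (position 8438567), near the 3′ end of 18S, went from 2.66 and 2.50 to 6.99 and 6.91, a change of 1.45 ± 0.08. The groups did not overlap at any of these U, which also held at 155 of the 243 tested U of 18S.

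Several called 18S U stood close together: 6 of the 16 had another called U within 10 nt. Bases 814 and 815 are adjacent, so a stop at one cannot be assigned to one base with certainty. At base 815 the stop percent was 3.97 and 3.40 without CMC and 10.3 and 8.22 with CMC, and at base 814 4.04 and 3.46 against 9.53 and 8.78. Base 815 lost its call in all 4 fits that left out a library (adjusted p = 0.097 to 1.0, edgeR). Base 1367 had 4.47 and 3.71 without and 10.3 and 10.0 with CMC, with a log2 change of 1.35 ± 0.09. Between bases 119 and 814, a stretch of 695 nt, no U was called, but 18S base 296 passed the adjusted p alone (0.044, edgeR) with 4.19 and 3.85 without and 7.14 and 7.32 with CMC, a log2 change of 0.86 that missed the fold threshold.

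The largest change in 28S rRNA was at base 4576 (tested in copy RNA28SN3, position 8401489), where the stop percent rose from 2.45 and 1.85 to 7.58 and 7.61, a log2 change of 1.86 ± 0.11. Base 4573, 3 nt to its 5′ side, rose from 1.71 and 1.47 to 5.88 and 5.03 (1.80 ± 0.07). Both windows are listed above and overlap. Base 1862 (RNA28SN3, position 8398778) had the highest CMC+ stop percent among called 28S U in replicate 1, 10.4, with 10.0 in replicate 2, against 3.13 and 2.75 without CMC (1.78 ± 0.07). Base 3815 rose from 2.21 and 1.70 to 7.08 and 6.51 (1.81 ± 0.09). In all, 21 of the 41 called 28S U lay within 10 nt of another, the median gap between called neighbours was 28 nt and the largest 1060 nt.

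The densest run was a row of 4 called U within 9 nt, shown here in the window of base 3765 with the other 3 left in lower case.
28S base 3765: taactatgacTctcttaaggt
Bases 3759 and 3761 had log2 changes of 1.19 and 1.24, and bases 3765 and 3767 1.62 and 1.67. At base 3765 the stop percent was 1.44 and 1.33 without CMC and 4.55 and 4.06 with it, the first from 11 and 13 stop reads. At base 3767 it was 2.01 and 1.71 against 6.46 and 5.55. The groups did not overlap at any of the 4, which also held at 349 of the 507 tested U of 28S. Base 3765 lost its call without CMC+ replicate 1, CMC+ replicate 2 or CMC- replicate 2.

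Base 4296 went from 2.70 and 2.33 to 8.05 and 8.22 (1.73 ± 0.09). Base 4529 went from 2.43 and 2.16 to 7.06 and 7.30 (1.66 ± 0.08). Base 4468 went from 2.99 and 3.15 to 8.94 and 9.85 (1.60 ± 0.07). All 3 kept their groups apart, as did 349 of the 507 tested U of 28S, and were called whichever library was left out. Base 4997 rose from 2.06 and 1.66 to 5.53 and 5.96 (1.67 ± 0.11), and base 4454 from 1.52 and 1.45 to 4.47 and 4.30 (1.56 ± 0.10). Base 4454 lost its call without CMC+ replicate 2 (adjusted p = 0.12, edgeR) or CMC- replicate 2 (0.083). Base 1792 marked the lower edge of the calls, with 4.71 and 4.83 without and 9.86 and 9.96 with CMC and a log2 change of 1.04 ± 0.08, and it lost its call in all 4 fits that left out a library (adjusted p = 0.068 to 0.72, edgeR). Base 4497 had 4.66 and 4.12 without and 9.69 and 10.2 with CMC, a change of 1.20 ± 0.08 that fell to 0.97, under the fold threshold, when the libraries were centred on their other bases.

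Calls in nuclear rRNA also reached 5.8S rRNA, which pairs with 28S in the large subunit. One of its 22 tested U was called, base 68 of the copy at chromosome 21, position 8256848, at 3.87 and 3.71 without and 8.94 and 8.78 with CMC (1.23 ± 0.07, adjusted p = 0.0034, edgeR). It was called whichever library was left out. The pseudogene RNA5-8SP6 was called at the same base and shares the printed 21 bases. The 2 differ within the 31 bases of the tables, and how reads matching both were split is not given in the sources used here, so that call is uncertain. A further copy on chromosome 20 had 14.1 and 10.5 without and 27.6 and 30.3 with CMC at base 68 and was not called (adjusted p = 0.69, edgeR). That U entered the test only through its CMC+ libraries and so had to have more stop reads with CMC. Base 54 of the chromosome 21 copy, with 2.43 and 2.19 without and 3.53 and 3.35 with CMC, did not pass (0.56 ± 0.10, adjusted p = 0.86). In the spacers of the 45S precursor 0 of 114 tested U were called, and their largest log2 change was 0.49.

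The 4 called bases other than U all sat directly 5′ of a called U. Their windows show the called base as the capital, with the called U as the next letter.
28S base 4517: aatagggaacGtgagctgggt
28S base 4996: ctgggtcgggGtttcgtacgt
28S base 4496: gcgttggattGttcacccact
MT-RNR2 base 1396: cctacgtgatCtgagttcaga
At 28S base 4517 the stop percent was 3.21 and 2.57 without and 7.11 and 5.48 with CMC (1.11 ± 0.06, adjusted p = 0.0034, edgeR). At base 4996 it was 1.99 and 1.49 against 4.11 and 3.66, and at base 4496 2.04 and 1.93 against 4.12 and 4.77. Each of these 3 calls was lost without CMC- replicate 2 (log2 changes of 0.91, 0.94 and 1.13), that of base 4517 also without CMC+ replicate 1 (0.94) and that of base 4496 also without CMC+ replicate 2 (1.07). In MT-RNR2, the mitochondrial 16S rRNA, C at base 1396 rose more (1.30 and 1.73 to 4.29 and 3.87, log2 1.39 ± 0.14) than U at base 1397 beside it (2.17 and 2.39 to 5.64 and 4.52, 1.11 ± 0.12). The difference between these 2 bases was not tested.

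The bases around all called U showed the same side. Of the non-U bases 1 nt to the 5′ side, 46 were listed, the 4 called ones above among them. Their median log2 ratio was 0.76 in replicate 1 and 0.58 in replicate 2. The 35 on the 3′ side had 0.30 and 0.19, and tested non-U bases at large had 0.26 and 0.21. In 18S and 28S rRNA, where most called U lay, tested non-U bases had lower median log2 changes in the fit, 0.15 and 0.14. Differences from these backgrounds were not tested. At 24 called U both neighbours were listed and neither was U, and the 5′ neighbour had the larger ratio in both replicates at 17 of them and the 3′ neighbour at 3. From 2 nt outwards the medians of both replicates together lay between 0.20 and 0.32. A neighbour at which CMC stops fell below CMC- stops would not be listed. Where called U lay 2 nt apart, the base between them counted on both sides.

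**Figure D3:**
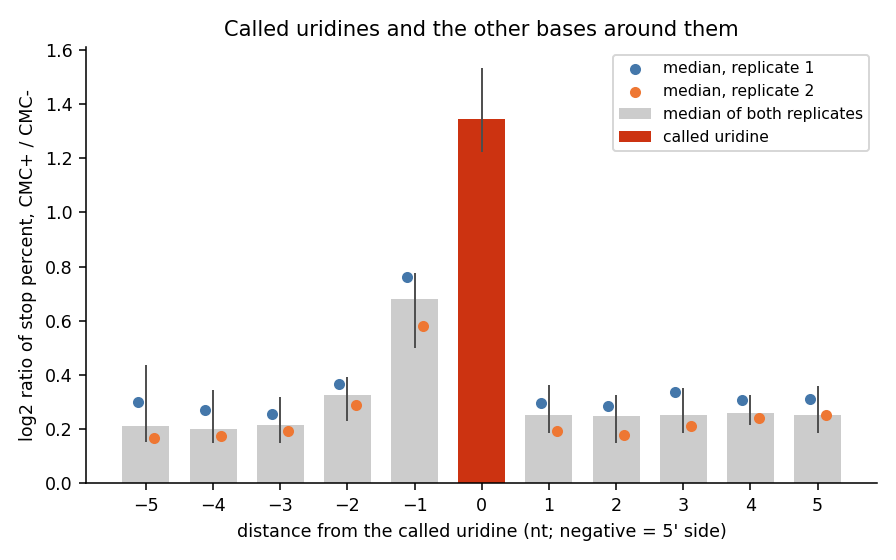
Median log2 ratio of stop percent (CMC+ over CMC-) at the called U (red) and at listed non-U bases up to 5 nt away (grey), against distance in nt, with lines from the lower to the upper quartile and points for each replicate. The base 1 nt to the 5′ side stands at 0.68, the base 1 nt to the 3′ side at 0.25 and the called U at 1.34.

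Mitochondrial RNA, transcribed from its own genome and modified by enzymes imported into the organelle, gave 3 called U. In mitochondrial tRNA 2 of 22 tested U passed (9.09%), in MT-RNR1 and MT-RNR2 1 of 231 (0.433%) and in mitochondrial mRNA 0 of 752, with 23 of the last at an unadjusted p under 0.05. MT-TF, the tRNA for phenylalanine, was called at base 29 (mitochondrial position 605): 1.81 and 0.919 without and 5.16 and 5.22 with CMC (1.87 ± 0.20, adjusted p = 0.031, edgeR). The CMC- values rest on 7 and 3.5 stop reads. Alone among the 63, this U therefore entered the test only through its CMC+ libraries and had to have more stop reads with CMC. It is outside the test that asks for 5 in each CMC- library. The call was lost in all 4 fits that left out a library (adjusted p = 0.053 to 0.99). MT-TM, the tRNA for methionine, rose at base 24 (position 4425) from 3.39 and 3.43 to 13.3 and 9.26 (1.68 ± 0.16, adjusted p = 0.017, edgeR). Its CMC- stop reads were 9.17 and 9.83, and only the second rounds to 10. This call therefore also needed a CMC+ library to enter the test. That call held without CMC+ replicate 2 and was lost without any of the other 3 libraries (adjusted p = 0.083 to 0.19). MT-TE base 37, in the tRNA for glutamate, had 3.24 and 3.62 without and 13.1 and 10.1 with CMC from 5 CMC- stop reads in each replicate, and did not pass (adjusted p = 0.19). This uncalled U likewise entered the test only through its CMC+ libraries and so had to have more stop reads with CMC.

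In the mitochondrial rRNAs the call fell on MT-RNR2 base 1397 (position 3067), given above. It kept an adjusted p of 0.031 without CMC+ replicate 1, but its log2 change was then 0.97, and it did not pass with unrounded counts (adjusted p = 0.087, edgeR). MT-RNR1, the 12S rRNA, had a small change that passed the adjusted p alone: at base 610 the stop percent was 6.86 and 6.20 without and 9.70 and 9.11 with CMC (0.53 ± 0.06, adjusted p = 0.038). MT-RNR1 base 717 had 1.28 and 0.589 against 2.57 and 1.44 (1.14 ± 0.14, adjusted p = 0.57). Among mitochondrial mRNAs the U with the smallest p was base 173 of MT-ND4L, a subunit of respiratory complex I, with 3.10 and 2.49 without and 6.10 and 5.25 with CMC (1.04 ± 0.10, adjusted p = 0.26). MT-CO2 base 59 (0.98) and MT-CO1 base 390 (0.92), in subunits of cytochrome oxidase, followed at an adjusted p of 0.86 each.

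Small nuclear RNAs of the spliceosome are classic carriers of pseudouridine, and few of their U were deep enough to test. In RNU4-2, a U4 gene, base 72 (chromosome 12, minus strand, position 120291832) had stop percents of 30.0 and 24.7 with CMC against 6.95 and 8.74 without (1.72 ± 0.18, adjusted p = 0.030, edgeR). The CMC- values rest on 6.25 and 9.75 stop reads, of which only the second rounds to 10. This call therefore also needed a CMC+ library to enter the test. With a minimum of 5 in each CMC- library the adjusted p was 0.025 (edgeR). It was the 1 call among 8 tested U of this class, and it was lost in all 4 fits that left out a library (adjusted p = 0.10 to 0.20). RNU5B-1, a U5 gene, had 6.07 and 6.90 without and 23.5 and 16 with CMC at base 53, from 4 CMC- stop reads in each replicate, and did not pass (1.67 ± 0.26, adjusted p = 0.31). That U entered the test only through its CMC+ libraries and so had to have more stop reads with CMC. RNU4-1 base 79 had 15 and 6.94 without and 25.0 and 28.9 with CMC (1.32 ± 0.28, adjusted p = 0.55, edgeR). There the 2 CMC- libraries disagreed, and without CMC- replicate 1 the log2 change was 1.96 (adjusted p = 0.00048) and without CMC+ replicate 1 1.39 (adjusted p = 0.0089). U4 and U5 genes have near-identical copies, so the split of reads between copies is uncertain.

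In nuclear tRNA 2 of the 4 tested U had CMC- stop reads under the minimum in both replicates. These 2 entered the test only through their CMC+ libraries and so had to have more stop reads with CMC. Neither passed the adjusted p. Both U lie in a GTTC stretch like that of the T arm, where synthases make the pseudouridine that gives the TΨC loop its name.
tRNA-Gly-CCC-chr1-135 base 53: agacccgggtTcaattcccgg
tRNA-Glu-TTC-5-1 base 54: taacgcgggtTcgattcccgg
In the glycine tRNA the stop percent was 3.24 and 4.59 without and 29.8 and 18.3 with CMC, on 2 and 3 CMC- stop reads (2.51 ± 0.37, adjusted p = 0.14, edgeR). In the glutamate tRNA it was 3.13 and 2.04 without and 12.6 and 8.09 with CMC, on 5 and 3 CMC- stop reads (1.96 ± 0.26, adjusted p = 0.077). That CMC+ was not lower in either replicate is fixed by the listing. Only 4 U of nuclear tRNA were tested, and base 5 of the same glutamate tRNA had 7.02 and 6.64 against 12.2 and 9.89 (0.68 ± 0.15).

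Nuclear mRNA had the most tested U and no call. None of 3534 tested U and none of 6634 other bases passed in edgeR or DESeq2 with the block; at an unadjusted p under 0.05 in edgeR stood 147 U (4.16%) and 214 other bases. The stop percent was at least doubled in both replicates at 24 tested U (0.679%) and 25 other bases (0.377%) of nuclear mRNA, against 43 of 507 U (8.48%) and 4 of 2027 other bases in 28S rRNA. Coverage differed: the median tested U had 48.1 stop reads over the 4 libraries in mRNA, 74.2 in 18S and 107 in 28S. Where a sequence stood in several copies, as in the rRNA genes, these are the reads of the copy kept. Reads given to the other copies are left out. By region, 52 of 1328 U of coding sequence (3.92%), 19 of 383 of 3′ UTRs (4.96%) and 8 of 327 of 5′ UTRs (2.45%) stood at an unadjusted p under 0.05, against 2.96%, 2.78% and 2.00% of other bases there.

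The mRNA U with the smallest p was base 139 of RPL37A, a protein of the large ribosomal subunit, in the coding sequence (exon 2; chromosome 2, plus strand, position 216499392).
RPL37A base 139: gctctttctgTggcaaaggag
The stop percent was 4.87 and 4.28 without and 12.1 and 9.08 with CMC (1.19 ± 0.11, adjusted p = 0.13, edgeR). In EEF2, the elongation factor that moves the ribosome along mRNA, base 343 had 2.32 and 2.48 without and 6.92 and 4.44 with CMC (1.24 ± 0.19, adjusted p = 0.16). RPS24, a protein of the small subunit, had 2.68 and 2.85 without and 8.85 and 7.31 with CMC at base 263, on 5 and 6 CMC- stop reads (1.50 ± 0.19, adjusted p = 0.33). At these 3 U both CMC+ values were above both CMC- values, as at 4126 of the 6242 tested U. Within a replicate that order is fixed by the listing. The RPS24 U entered the test only through its CMC+ libraries and so had to have more stop reads with CMC.

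**Figure D4:**
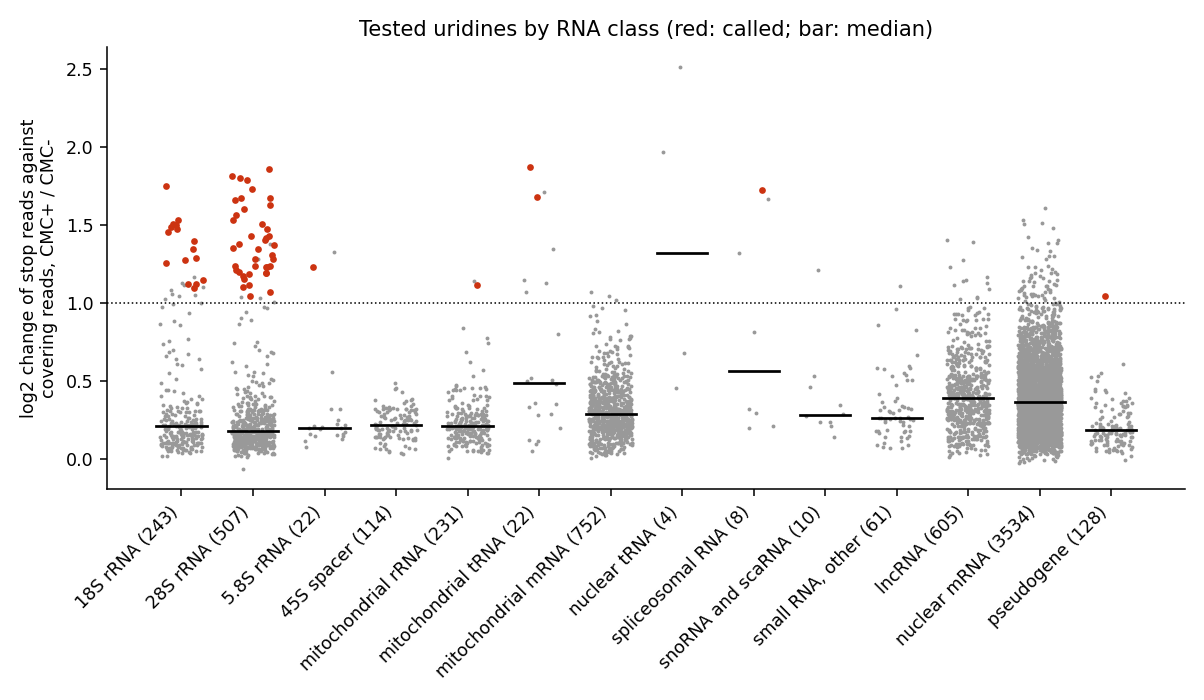
Log2 change of stop reads against covering reads (CMC+ over CMC-) of each tested U, by RNA class with the number tested in brackets, a bar at the class median, red for called U and a dotted line at the fold threshold. Called U stand in 18S (16), 28S (41), 5.8S, mitochondrial rRNA and tRNA, spliceosomal RNA and 1 pseudogene, and none of the 3534 U of nuclear mRNA is red.

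Among the remaining noncoding RNAs nothing passed. RN7SK, the scaffold that holds the elongation factor P-TEFb inactive, had 5.44 and 4.90 without and 12.3 and 10.3 with CMC at base 249 (1.11 ± 0.10, adjusted p = 0.20, edgeR). Its window is of the kind that the synthase PUS7 is known to use.
RN7SK base 249: ggtccatttgTaggagaacgt
SNORD13, a small nucleolar RNA that assists 18S maturation, had 8.50 and 7.46 without and 22.1 and 15.9 with CMC at base 73 (1.21 ± 0.13, adjusted p = 0.23). Of 605 tested U of long noncoding RNA none was called and 26 stood at an unadjusted p under 0.05. The 3 with the smallest p lay in 1 X-linked transcript, and some of them entered the test only through their CMC+ libraries.

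Sequence contexts of known synthases were searched in the sense strand, with the tested U at a fixed letter. UNUAA and UNUAG, read with the tested U as letter 3 and known for PUS7, held 55 (0.881%) and 53 (0.849%) of tested U. Of each 2 were called (3.64% and 3.77%, against 1.01% of all tested U), all in 28S rRNA: bases 4529, 4358, 3956 and 1792. Within 18S and 28S rRNA the calls were 2 of 10 and 2 of 9 tested U, against 57 of 750 (7.6%) in any context. In nuclear mRNA the same contexts held 21 and 21 tested U, with none called and none at an unadjusted p under 0.05. GUUCNANNC, known for TRUB1 and likewise read with the tested U as letter 3, held 8 tested U (0.128%) with none called. At an unadjusted p under 0.05 in edgeR stood 2, the 2 tRNA bases above. Both entered the test only through their CMC+ libraries and so had to have more stop reads with CMC. The other 6 U of this context had log2 changes of at most 0.38, including 18S base 823 at 0.20, next to the called base 822. UUUUG, with the tested U as any of its first 4 letters, held 133 (2.13%) with 2 called (1.50%, against 1.01% of all tested U). Both were among its 13 tested U in 18S and 28S rRNA. These counts are descriptions and carry no test, and a U can count under 2 contexts.

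The genes that make pseudouridine were hardly visible in these tables. Of 12 stand-alone synthase genes only PUS1 had a listed position and none was tested. Of 6 H/ACA protein genes 3 (DKC1, GAR1 and NHP2) were listed, and 1 U was tested, DKC1 base 23, with 29.9 and 32.1 without and 37.8 and 36.4 with CMC (0.24 ± 0.16, adjusted p = 0.86, edgeR). The 4 C/D box protein genes, which belong to the methylation guides, had 7 tested U with none called. Listed positions do not measure expression.

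Counting stop reads per library total instead of against covering reads gave fewer calls. It called 25 U (0.401%) and 1 other base (0.00792%), and 0 lower, while unadjusted p-values under 0.05 in edgeR were found for 213 U with higher and 5 with lower counts. Of the 63 U called against covering reads 24 were called by both measures and 39 were not called per total, and 1 U, RNU4-1 base 79 (adjusted p = 0.016), was called per total only. The median log2 change of the 63 per total was 0.92. Coverage scaled to the library total was itself lower with CMC in rRNA, by a median log2 of -0.20 and -0.31 over tested 28S U and -0.24 and -0.33 over 18S U in replicates 1 and 2, against -0.11 and -0.16 over U of nuclear mRNA, and the part of this in the difference between the measures was not tested. The calls per total were 0 without the replicate block, 9 with TMM scaling, which lowered the median log2 over all positions from 0.14 to -0.01, and 10 with DESeq2. Fits with 3 libraries, which cannot carry the block, also gave 0, so for this measure the effect of a single library was not separated from that of the block.

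The called U were then read in libraries that the test had not used. In HCT116, a human colorectal carcinoma line, all 63 were listed both in the CMC+ tables without Terminator and, for CMC-, in the Terminator tables, which were processed separately: CMC+ reads come with fractions and CMC- reads as whole counts. The tables of CMC+ also hold control columns, which no label ties to a replicate and which were read second. The median stop percent was 1.79 in CMC- and 4.86 in CMC+, each U as the mean of 2 libraries, and the median log2 ratio 1.35 with a range of 0.56 to 3.65. At 53 of the 63 (84.1%) it was at least 1, against 27 of 289 listed U of 18S and 28S rRNA that had not been called (9.34%) and 55 of 1349 other bases (4.08%). Both CMC+ values lay above both CMC- values at 63 of 63, and at 235 of those 289 (81.3%). With the control columns beside CMC+, which are counted with fractions too, the median without CMC was 1.81, the median log2 ratio 1.35, and 54 of 63 U (85.7%) reached a ratio of at least 1 on the log2 scale, against 27 of 468 listed uncalled U of 18S and 28S rRNA (5.77%) and 110 of 3779 other bases (2.91%); there the listing fixes the direction. Since the HCT116 tables also select positions by their stops, these shares are a description.

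**Figure D5:**
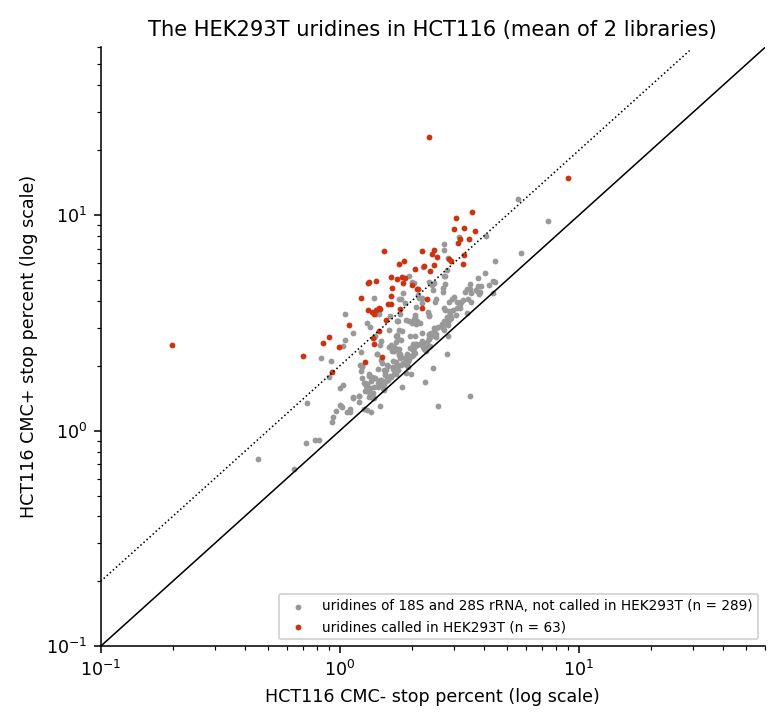
Stop percent in HCT116 with CMC (y axis) against without (x axis), log scales, mean of 2 libraries, CMC- from the Terminator tables, for the 63 U called in HEK293T (red) and 289 uncalled U of 18S and 28S rRNA (grey), with a solid line at equality and a dotted line at a ratio of 2. Of the red points 53 lie on or above the dotted line, and of the grey points 27.

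Single U followed the same order in the second line. At RNU4-2 base 72 the HCT116 values were 2.38 and 2.34 without and 20.7 and 25.4 with CMC, and 3.84 and 3.20 in the control columns beside CMC+. At MT-TF base 29 they were 0.231 and 0.168 against 3.12 and 1.87, and at MT-TM base 24 4.06 and 2.09 against 11.4 and 8.01. In HEK293T each of these 3 calls had been lost when a library was left out. At 28S base 4576 the values were 1.34 and 1.29 against 5.02 and 4.71, and at 18S base 966 1.87 and 1.75 against 5.01 and 5.37.

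The HEK293T tables with CMC and Terminator, which share the CMC- controls used here, also listed all 63. Their median stop percent was 11.2, beside 6.44 with CMC alone, and both Terminator values lay above both CMC+ values at 62 of 63, against 186 of 355 listed U of 18S and 28S rRNA that were not called (52.4%). RNU4-2 base 72 reached 53.9 and 48.6, and 28S base 1862 16.5 and 17.1. No test was made of the difference that Terminator makes.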

How the data were processed

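The submitters' processing notes name cutadapt 2.8, STAR without a version, and hg38. Stop and read-through reads in the HEK293T tables and in the HCT116 tables without Terminator were deposited in fractional form, that is expected counts; how reads matching several positions were shared is not given in the sources used here. The HCT116 Terminator tables hold whole counts, per the file headers. The authors also deposited stop reads as RPM, and counts divided by RPM gave each library's total. CMC- stop reads are never below 1 in the HEK293T tables, and no called U had a CMC- library at exactly 1.

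Expected counts were rounded and fitted in edgeR 4.0.16 (R 4.3.3; glmQLFit, glmQLFTest) on the 4 libraries, with log covering reads as offset or with the library total as size, and the replicate as a block, because the series text describes each replicate as a CMC-/CMC+ pair. Across 18876 positions, deviations from the group mean of log2 stop RPM correlated at 0.46 between libraries of the same number. One position was tested per 31-base sequence, the copy with most covering reads. The SE is the log2 change divided by the square root of F. Common dispersion was at its lower limit in edgeR. The script was tested on simulated data.

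Named U were the 15 called U with the largest change, the 10 with the highest CMC+ stop percent, up to 3 per RNA class with the smallest p, up to 5 called other bases and up to 5 U of synthase and H/ACA genes; 18S bases 63, 296, 814, 823 and 1248 and 28S bases 3759, 3761, 4358 and 3956 were added after their values were seen. The members and lists were chosen with earlier results of these data known. Of positions with an Ensembl transcript, 88.4% had that version in GENCODE 29, from which regions come, and the base matched at 100% of them. rRNA copies and bases come from RefSeq (GRCh38.p14). Alternatives were other filters, no rounding, no block, each library left out, other scaling and DESeq2 1.42.0. The HCT116-shDKC1 libraries were not used here.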

Additional observations from a re-analysis of the deposited data

How the results depend on the processing

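The direction of a change against covering reads is set by the listing unless the libraries are centred, so mainly calls could move. The 63 U called against covering reads became 0 with DESeq2 and 33 when centred on the median of other bases, and 30 to 51 when 1 library was left out without the block (4 fits). Without the replicate block alone, 60 were called, each of them among the 63. The 25 U called per library total became 0 without the replicate block, 10 with DESeq2, where 17566 positions had no adjusted p, and 9 with TMM scaling. Leave-one-out fits, which also lack the block, gave 0, with 47 to 286 U at an unadjusted p under 0.05. The 4 other bases called against covering reads became 0 with DESeq2, 1 when centred, and 1 to 4 with a library left out. The 1 other base called per total became 0 without the replicate block, with a library left out or not, and 0 with DESeq2. Since dropping the block alone already gives 0 per total, these fits do not show what a single library does. Both filters, all copies tested, no fold minimum and unrounded counts kept every count within 1.5 times. The pseudogene base RNA5SP528 nt 46, at about 97% stops in every library, went to -0.19 when centred. Called U outside 18S, 28S and 5.8S rRNA number 5, and none of them was called in each fit that left out a library; their CMC- libraries held as few as 3.5 stop reads. With the control columns beside HCT116 CMC+, an alternative chosen after seeing the data, 54 in place of 53 called U reached a log2 ratio of 1 there. Depth limits what could be tested in nuclear mRNA, where 3534 of 14753 listed distinct U had enough stop reads.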
